A study of Mus musculus with 6 samples.

Results

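The matrix metalloproteinases (MMPs) and their tissue inhibitors (TIMPs) measured here are 10 genes, namely Mmp13, Mmp2, Mmp9, Mmp3, Mmp11, Mmp14 and Mmp16 and the inhibitors Timp1, Timp2 and Timp3. They were taken by gene symbol from a deposited table of 23358 entries, in which 27 symbols begin with Mmp or Timp, and all 10 had enough counts to be tested. RNA was sequenced from immature mouse chondrocytes of the tibial plateau, femoral condyles and femoral head of mice aged 5 days after birth. The cells grew as micromasses, dense spots of cells in cartilage matrix. There were 6 libraries, 1 for each of 2 genotypes on each of days 3, 7 and 14 of culture. The wildtype and the Ezh2-deficient cells (titled Ezh2_cKO, a conditional knockout) shared the strain label C57BL/6 - mix and the same medium, with ascorbic acid, β-glycerol phosphate and an insulin-transferrin-selenium supplement. Ezh2 is the methyltransferase of Polycomb repressive complex 2, which marks histone H3 at repressed genes. What drives the deletion, and whether animals were pooled for a library, are not given in the sources used here.

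MMPs are secreted or membrane-bound zinc proteases that are made as inactive proenzymes and cut the proteins of the extracellular matrix. In the growth plate, collagenase and gelatinase open the cartilage of hypertrophic chondrocytes to vessels and bone. TIMPs bind the active site of MMPs and block them, and Timp2 also helps Mmp14 to activate Mmp2 at the cell surface.

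The libraries held between 51985214 and 79323302 counts, in 17609 to 18139 entries with a count above 0. Levels are given as counts per 1000000 (CPM), scaled by TMM (trimmed mean of M values) factors, and levels of different genes are compared only as the deposited RPKM, which divides by gene length. Ezh2 stood at 24.7, 40.2 and 27.9 CPM on days 3, 7 and 14 in wildtype cells and at 14.7, 23.0 and 17.6 CPM in Ezh2-deficient cells, so the labelled deficient library was lower on every day (log2 difference -0.74 ± 0.08 SE, edgeR adjusted p = 0.0729). Chondrocyte markers were abundant in every library, with 9 of 9 above the floor of 3 fragments, but their summed level ran from 131478 CPM on day 3 to 37026 on day 14 in wildtype cells and from 127431 to 22879 in Ezh2-deficient cells. With 1 library per genotype and day, the 3 days stood in for replicates of a genotype, and the 2 genotypes for replicates of a day. In such bulk RNA, fewer cells of a type and less RNA per cell cannot be told apart.

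Mmp13 and Mmp3 lie on the same strand of chromosome 9, in mm10 at 7272514 to 7283333 and at 7445822 to 7455974, and their promoters are shown because these 2 members were the ones with both an AP-1 and a TATA motif. RefSeq (GRCm38.p6) gave a promoter for 7 of the 10 members (Mmp13, Mmp3, Mmp11, Mmp14, Timp1, Timp2 and Timp3), and the 250 bases before each start were searched. The 150 bases before the start are printed 5′ to 3′ on the plus strand, with the AP-1 motif TGANTCA and the TATA box TATAAA in capitals.
Mmp13, chr9:7272364-7272513: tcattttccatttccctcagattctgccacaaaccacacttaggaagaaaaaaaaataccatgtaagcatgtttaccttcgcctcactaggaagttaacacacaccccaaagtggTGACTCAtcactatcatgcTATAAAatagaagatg
Mmp3, chr9:7445672-7445821: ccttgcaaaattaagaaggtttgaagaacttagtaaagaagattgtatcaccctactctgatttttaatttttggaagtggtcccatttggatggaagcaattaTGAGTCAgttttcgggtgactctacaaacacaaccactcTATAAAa
In Mmp13 the AP-1 motif lay 35 to 29 bases and the TATA box 16 to 11 bases before the start. In Mmp3 they lay 46 to 40 and 7 to 2 bases before it. The Runx motif TGTGGT was found on the minus strand, where the plus strand reads ACCACA. It lay 118 to 113 bases before the start of Mmp13 and 114 to 109 bases before that of Mmp14. Mmp14 was the other member with a match to any of the 3 motifs. AP-1 and Runx motifs were searched on both strands, the TATA box on the gene's strand, and the motifs do not overlap each other. Of 32851 RefSeq promoters, 6.75% held the AP-1 motif, 14.0% the Runx motif, 7.59% the TATA box and 0.791% both AP-1 and TATA. A match is a run of letters and was not tested as a binding site.

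Per length, the balance of the set moved from inhibitors on day 3 towards proteases on day 14. The summed RPKM of the 7 Mmp genes was 183 in wildtype and 181 in Ezh2-deficient cells on day 3, 462 and 699 on day 7, and 915 and 705 on day 14. The summed RPKM of the 3 Timp genes was 479 and 540 on day 3, 590 and 617 on day 7, and 733 and 573 on day 14. Timp transcripts therefore made up 72.4% and 74.9% of the set's summed RPKM on day 3, 56.1% and 46.9% on day 7, and 44.5% and 44.8% on day 14, in wildtype and Ezh2-deficient cells respectively. Both genotypes had the highest inhibitor share on day 3 and the lowest on day 14, and the genotypes lay furthest apart on day 7. The deposited RPKM carries no TMM scaling (factors from 0.935 to 1.09). This limits the comparison of the sums between libraries, while the shares within 1 library are unaffected.

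**Figure D1:**
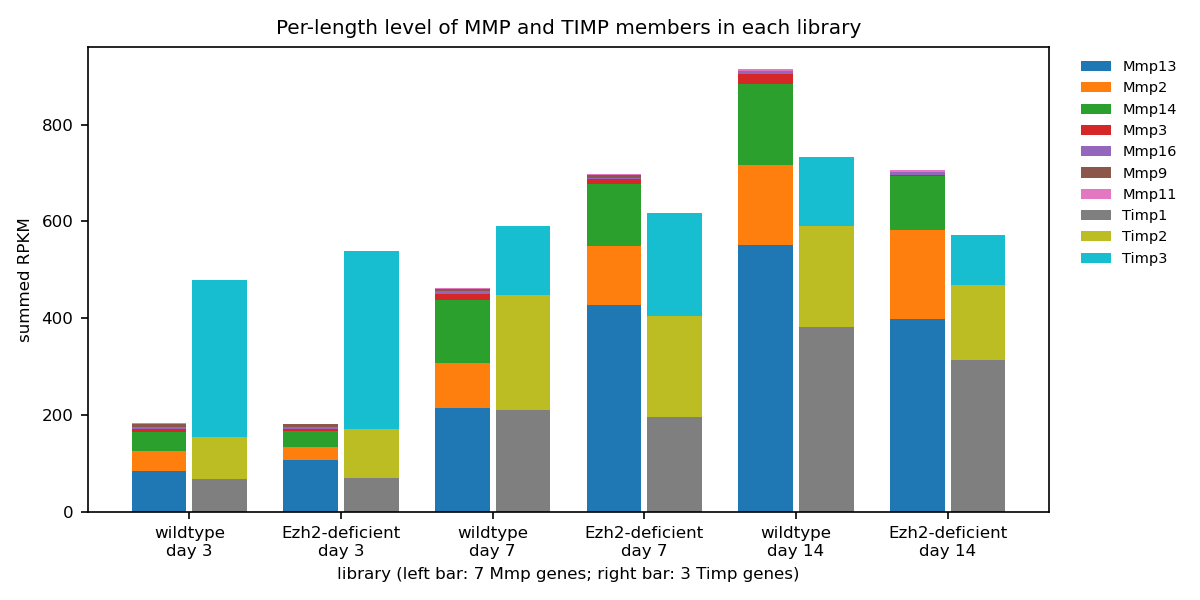
Summed RPKM of the 7 Mmp genes (left bar) and the 3 Timp genes (right bar) in each of the 6 libraries, stacked by gene, with 1 library per bar and no error. On day 3 the Timp bar is the taller in both genotypes, mainly through Timp3, and on day 14 the Mmp bar is the taller, mainly through Mmp13.

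Within the set, the order of levels changed with time. On day 3 Timp3 led with 325 RPKM in wildtype and 369 in Ezh2-deficient cells, followed by Timp2 at 86.5 and 101 and Mmp13 at 83.2 and 107, a pair that changed places between the genotypes. On day 14 Mmp13 led with 550 RPKM in wildtype and 397 in Ezh2-deficient cells, and Timp1 came next at 382 and 313. Mmp2, Mmp14 and Timp2 then ran from 111 to 209 RPKM, and their order differed between the genotypes. Mmp3, Mmp16, Mmp11 and Mmp9 stayed at 20.6 RPKM or less in every library.

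Between day 3 and day 14, 6 of the 10 members rose (Mmp13, Mmp2, Mmp11, Mmp14, Timp1 and Timp2), 2 fell (Mmp9 and Timp3) and 2 did not pass (Mmp3 and Mmp16). They were tested by edgeR with a quasi-likelihood F test, genotype in the model and adjustment over 16280 genes, by which 23.2% of all tested genes rose and 22.4% fell. The members' median log2 change was 1.51, against -0.02 for all tested genes, and their median change regardless of sign was 1.90 against 0.51. From day 3 to day 7, 6 members rose and 2 fell (Timp3 and Mmp16), beside 19.5% and 16.6% of all genes. From day 7 to day 14, Timp1 rose and Mmp9 fell, beside 3.38% and 2.29% of all genes. These 3 comparisons share libraries and are given side by side.

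**Figure D2:**
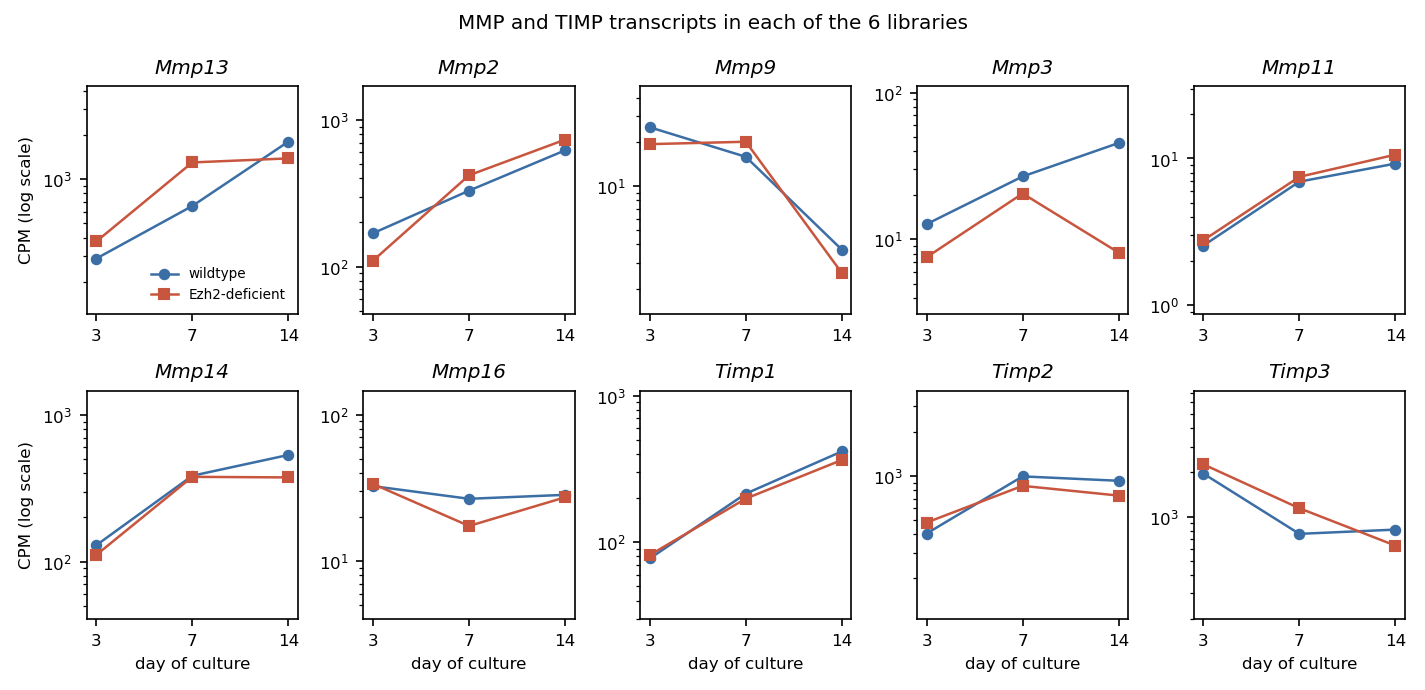
CPM (log scale) of each of the 10 members by day of culture, in wildtype (circles) and Ezh2-deficient (squares) cells, 1 library per point. All panels span the same number of log units, so that slopes can be compared. Mmp9 falls from day 7 to day 14 in both genotypes, and the genotypes lie furthest apart for Mmp3 on day 14.

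Mmp13, the collagenase of hypertrophic cartilage, which cuts type II collagen, rose from 287 CPM on day 3 to 656 on day 7 and 1802 on day 14 in wildtype cells. In Ezh2-deficient cells it stood at 376, 1301 and 1386 CPM. Both day 14 values lay above both day 3 values, and the change was 4.95-fold (log2 2.31 ± 0.33, edgeR adjusted p = 0.00362). The wildtype cells gained most between days 7 and 14 (2.75-fold) and the Ezh2-deficient cells between days 3 and 7 (3.46-fold), with a 1.07-fold step afterwards that became 0.932 when library sizes were not TMM-scaled. Without that scaling the wildtype steps were 2.63-fold from day 3 to day 7 and 2.58-fold from day 7 to day 14, so the larger one changed interval. The call from day 3 to day 7 (log2 1.53 ± 0.32, adjusted p = 0.0170) was lost without the Ezh2-deficient day 7 library (log2 1.01, adjusted p = 0.108).

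Mmp2 (chromosome 8, 92827328 to 92853420), a gelatinase that cuts denatured collagen and is activated at the cell surface, stood at 169, 329 and 620.0 CPM on days 3, 7 and 14 in wildtype cells. The Ezh2-deficient values were 110, 419 and 734 CPM. The days did not overlap, and day 14 exceeded day 3 by 4.86-fold (log2 2.28 ± 0.26, edgeR adjusted p = 0.00169). The step from day 3 to day 7 (log2 1.43 ± 0.25, adjusted p = 0.0101) was lost without the Ezh2-deficient day 7 library (adjusted p = 0.0740).

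Mmp9 (chromosome 2, 164948251 to 164955846), the other gelatinase, known from osteoclasts and other cells of the myeloid line, went the opposite way. It stood at 25.2, 15.8 and 3.68 CPM in wildtype cells and at 19.3, 20.1 and 2.55 CPM in Ezh2-deficient cells. Both day 14 libraries were below all 4 earlier ones. Day 14 was at 0.140 of day 3 (log2 -2.84 ± 0.25, edgeR adjusted p = 0.00077), while day 7 against day 3 did not pass (log2 -0.29 ± 0.22, adjusted p = 0.356). Day 14 against day 7 gave log2 -2.55 ± 0.25 (adjusted p = 0.00961), which no longer passed without the Ezh2-deficient library of day 7 (adjusted p = 0.0620) or of day 14 (0.0662).

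Markers of osteoclasts and other myeloid cells were also measured. The 10 osteoclast markers summed to between 234 and 409 CPM in wildtype and between 204 and 293 CPM in Ezh2-deficient cells, highest on day 14 in both. Of these markers, 7 were above the floor in every library and Calcr in none. Most of each sum was 1 gene, Ctsk, at 170 to 270 CPM in wildtype and 152 to 180 CPM in Ezh2-deficient cells. Oscar, Dcstamp and Ocstamp stayed at 0.426 CPM or less in every library. The 10 macrophage markers, all above the floor in every library, went from 161 to 2062 CPM in wildtype and from 120 to 2796 CPM in Ezh2-deficient cells between days 3 and 14. The 7 neutrophil markers, of which 2 were above the floor in every library and Elane in none, summed to 2.31 and 2.58 CPM on day 3, 2.72 and 3.00 on day 7, and 0.836 and 0.584 on day 14 (wildtype and Ezh2-deficient). Most of the day 7 sum was 1 gene, Camp, at 1.79 and 2.75 CPM. The part of these cells in the level of Mmp9 was not tested.

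Mmp3, stromelysin, which cuts proteoglycans and activates other pro-MMPs, rose through all 3 days in wildtype cells, with 12.7, 26.9 and 45.4 CPM. In Ezh2-deficient cells it stood at 7.56, 20.6 and 8.14 CPM, highest on day 7. Day 14 and day 3 overlapped, since the Ezh2-deficient day 14 value lay below the wildtype day 3 value, and the day difference did not pass (log2 1.11 ± 0.50, edgeR adjusted p = 0.124). Without the Ezh2-deficient day 14 library it passed (log2 1.93, adjusted p = 0.00336).

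Mmp11 (chromosome 10, 75923224 to 75932463), a stromelysin activated inside the cell by furin, was among the lowest members per length and rose in step in both genotypes. It stood at 2.55, 6.95 and 9.23 CPM in wildtype cells and at 2.77, 7.50 and 10.6 CPM in Ezh2-deficient cells. The 3 days did not overlap. The change from day 3 to day 14 was 3.73-fold (log2 1.90 ± 0.16, edgeR adjusted p = 0.000727), on 168 to 206 counts in the day 3 libraries.

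Of the membrane-type proteases, Mmp14 rose and Mmp16 did not. Mmp14 (chromosome 14, 54431604 to 54441258), a collagenase of the cell surface and activator of Mmp2, stood at 129, 385 and 533 CPM in wildtype cells and at 111, 378 and 375 CPM in Ezh2-deficient cells. Both later days lay above day 3, with a rise of 3.75-fold by day 14 (log2 1.91 ± 0.14, edgeR adjusted p = 0.000481), most of it reached by day 7 (log2 1.68 ± 0.14, adjusted p = 0.00114). Mmp16 (chromosome 4, 17853482 to 18118734), another membrane type, stood at 32.5, 26.6 and 28.3 CPM in wildtype and at 33.6, 17.4 and 27.3 CPM in Ezh2-deficient cells. It was lowest in the Ezh2-deficient day 7 library. Its fall from day 3 to day 7 (log2 -0.61 ± 0.18, adjusted p = 0.0462) was lost without that library (log2 -0.29, adjusted p = 0.311), without the Ezh2-deficient day 3 library (0.132), with total counts as library sizes (0.129) and with no filter on low counts (0.0522).

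The 3 inhibitors took different courses. Timp1, a soluble inhibitor, stood at 77.4, 214 and 416 CPM in wildtype and at 81.7, 198 and 364 CPM in Ezh2-deficient cells. The days did not overlap, the rise to day 14 was 4.88-fold (log2 2.29 ± 0.11, edgeR adjusted p = 0.000177), and Timp1 was the one member that rose both from day 3 to 7 (log2 1.37 ± 0.11, adjusted p = 0.000886) and from day 7 to 14 (log2 0.92 ± 0.10, adjusted p = 0.0141). That last call was lost without the wildtype day 7 library (adjusted p = 0.123), the Ezh2-deficient day 7 library (0.179) or the Ezh2-deficient day 14 library (0.0645). Timp1 lies on the X chromosome at 20870166 to 20874737 within Syn1 on the opposite strand, and Syn1 itself held 1.88 to 4.16 CPM.

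Timp2 (chromosome 11, 118301061 to 118355411, overlapping Cep295nl on the same strand), which binds pro-Mmp2, stood at 404, 992 and 926 CPM in wildtype and at 480.5, 855 and 734 CPM in Ezh2-deficient cells. Both genotypes were highest on day 7, and day 3 lay below both later days. Day 14 exceeded day 3 by 1.86-fold (log2 0.90 ± 0.17, edgeR adjusted p = 0.00922), a call lost without the wildtype day 14 library (adjusted p = 0.0509). Day 7 against day 3 (log2 1.05 ± 0.17, adjusted p = 0.00771) was lost without the wildtype (0.0776) or the Ezh2-deficient (0.0548) day 7 library.

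Timp3, the inhibitor that stays bound to the matrix and also blocks aggrecanases, was the member that fell from the highest level. It stood at 1963, 762 and 814 CPM in wildtype and at 2269, 1139 and 634 CPM in Ezh2-deficient cells. Both day 3 libraries were above all 4 later ones. Day 14 was at 0.346 of day 3 (log2 -1.53 ± 0.24, edgeR adjusted p = 0.00489), and day 7 against day 3 gave log2 -1.16 ± 0.23 (adjusted p = 0.0153), lost without the wildtype day 7 library (adjusted p = 0.130). The wildtype cells reached their low level by day 7, whereas the Ezh2-deficient cells fell in both intervals. Timp3 (chromosome 10, 86300412 to 86349505) lies within Syn3 on the opposite strand, which held 3.04 to 12.4 CPM. The summed chondrocyte markers fell over the same days, and their part in the fall of Timp3 was not tested.

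**Figure D3:**
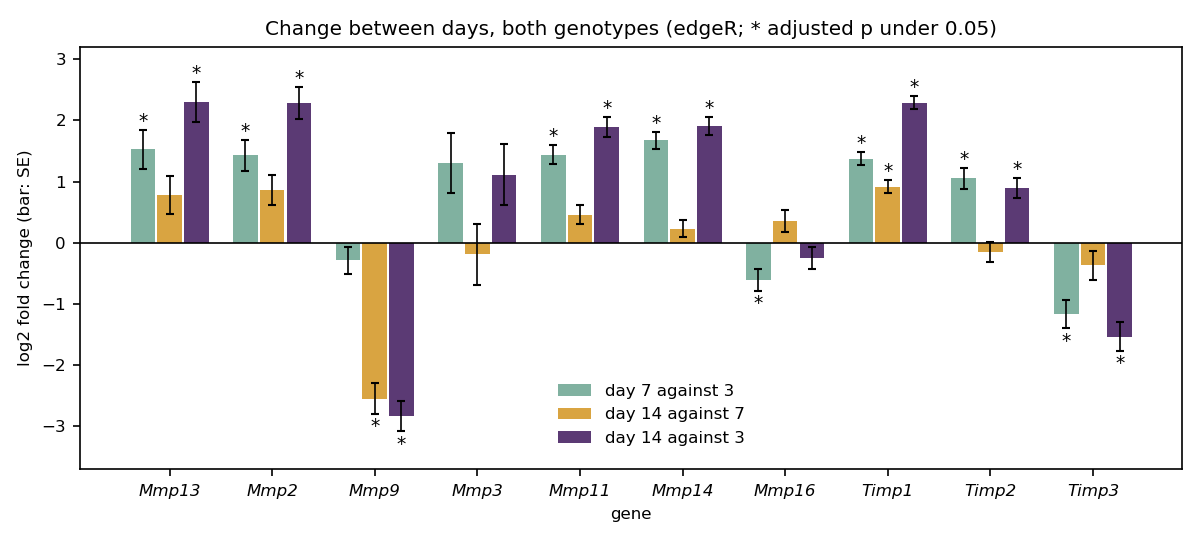
Log2 fold change of each member between days, both genotypes together (edgeR, bars are the fitted value and whiskers the SE, asterisks an adjusted p under 0.05). Mmp9 and Timp3 are the 2 members that fall from day 3 to day 14, Mmp9 in the second interval and Timp3 in the first.

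Markers of other cell types also changed between the days, with different courses. The 7 osteoblast markers, all above the floor, summed to 802 and 1326 CPM on day 3 (wildtype and Ezh2-deficient), 6757 and 8248 on day 7, and 44318 and 95670.1 on day 14. Most of each sum was 1 gene, Col1a1, at 703 and 1133, 6595 and 7676, and 34578 and 62973 CPM. From day 3 to day 7 in wildtype cells, Bglap (6.43 to 5.53 CPM) and Sp7 (24.3 to 22.3) were slightly lower, while Ibsp, Alpl, Phex and Dmp1 were higher. The 5 hypertrophic chondrocyte markers, all above the floor, summed to 675 and 834, 701 and 651, and 8105 and 5024 CPM on days 3, 7 and 14. The 7 of 7 fibroblast markers above the floor summed to between 1571 and 10531 CPM, lowest on day 3. Adipocyte markers (12.6 to 347 CPM) and smooth muscle markers (70.4 to 499.5 CPM) were lowest in the wildtype day 3 library. Both sets were highest on day 7 in each genotype and lower again on day 14. Endothelial markers stayed between 2.21 and 6.27 CPM with Emcn at or under the floor. The part of these cells in the members' changes was not tested.

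No member passed the test for a difference between Ezh2-deficient and wildtype cells over the 3 days. By edgeR, 0 of 10 members passed at an adjusted p under 0.05, beside 0.0123% of all tested genes (2 genes), and DESeq2 and limma-voom also called 0 members. At an unadjusted p under 0.05 there was 1 member, Mmp3, beside 13.2% of all genes. The members' median log2 difference was -0.09, against 0.00 over all genes. Mmp3 was lower in Ezh2-deficient cells on 3 of 3 days (log2 -1.18 ± 0.41, edgeR adjusted p = 0.332). Without the day 14 pair its difference was log2 -0.56 (adjusted p = 0.324). The next smallest p belonged to Mmp14 (log2 -0.25 ± 0.11, edgeR adjusted p = 0.421). Mmp14 was also lower on 3 of 3 days, though at a ratio of 0.983 on day 7. The other 8 lay between log2 -0.21 ± 0.15 (Mmp16) and 0.33 ± 0.26 (Mmp13), each with an adjusted p of 0.589 or more.

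**Figure D4:**
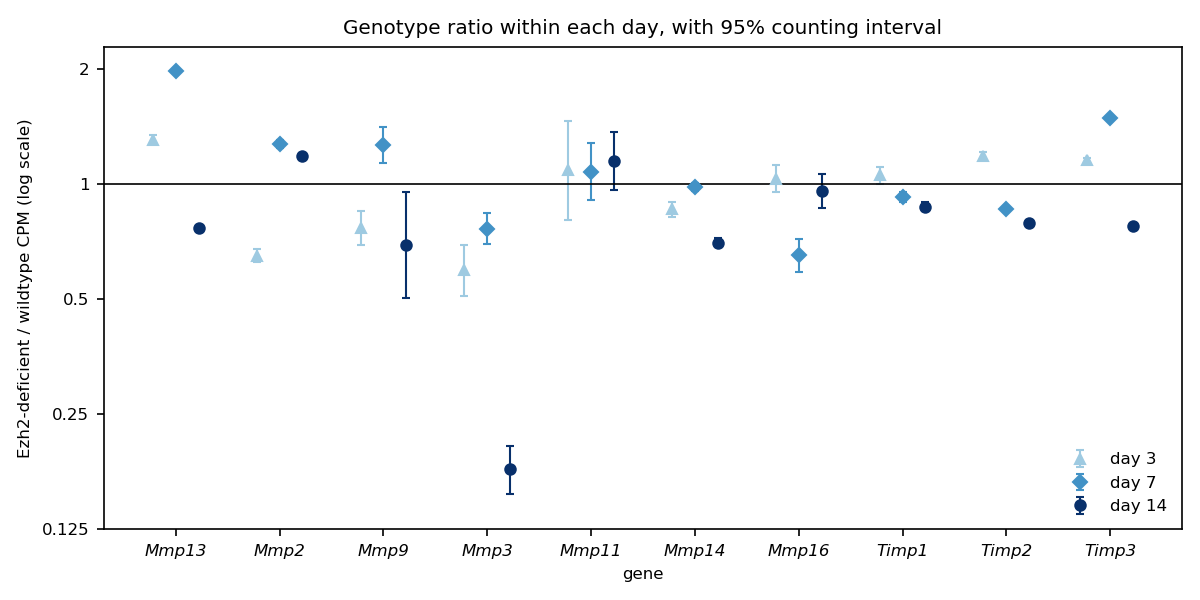
Ratio of Ezh2-deficient to wildtype CPM for each member on day 3 (triangles), day 7 (diamonds) and day 14 (circles), log scale, with the 95% counting interval of 1 library against 1. Mmp3 on day 14 lies lowest, at 0.179, and for 7 of the 10 members the points fall on both sides of 1.

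The sign of the genotype ratio was the same on all 3 days for 3 of 10 members (Mmp3, Mmp14 and Mmp11), beside 36.4% of all tested genes. Counting intervals cover 1 library against another and no variation between cultures, so what follows is a description. Mmp13 was at 1.31 of wildtype on day 3 (95% counting interval 1.27 to 1.34), at 1.98 on day 7 (1.95 to 2.01) and at 0.769 on day 14 (0.759 to 0.779). It thus lay above wildtype on the earlier days and below it on day 14. Timp3 had the same order of signs, with ratios of 1.16, 1.495 and 0.778. Mmp2 ran the other way, at 0.651 on day 3, 1.27 on day 7 and 1.18 on day 14.

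Mmp3 was at 0.595 of wildtype on day 3 (0.510 to 0.693), 0.765 on day 7 (0.696 to 0.842) and 0.179 on day 14 (0.155 to 0.207). It was the one member at least 2-fold apart on any day, on day 14. The same rule, which also asks for 1 CPM in the higher library and an interval that excludes 1, took 0 members on days 3 and 7. Over all genes it took 2.35% on day 3, 4.21% on day 7 and 5.88% on day 14. Without TMM scaling Mmp13 on day 7, with a ratio of 2.01, also passed. Mmp9 stood at 0.767, 1.27 and 0.693 of wildtype, Mmp14 at 0.859, 0.983 and 0.703, and Mmp16 at 1.04, 0.653 and 0.962. The counting intervals of Mmp14 on day 7 (0.960 to 1.006) and of Mmp16 on day 3 (0.953 to 1.12) and day 14 (0.868 to 1.07) included 1. Timp1 stood at 1.06, 0.925 and 0.874, and Timp2 at 1.19, 0.862 and 0.793, so both were slightly above wildtype on day 3 and below it later. Mmp11 had ratios of 1.09, 1.08 and 1.15, and the counting interval included 1 on each day.

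On day 14, 8 of the 10 members had a ratio below 1, Mmp2 and Mmp11 being the exceptions, and for 1 of the 8, Mmp16, the counting interval included 1 (0.868 to 1.07). Of all 13477 genes of at least 1 CPM in the higher library, 49.0% were lower in the Ezh2-deficient library on that day, and 61.8% without TMM scaling. Without it the members' count was the same and each of the 8 ratios was lower, for example 0.726 for Mmp13 and 0.169 for Mmp3. On that day the Ezh2-deficient library also had the higher osteoblast sum and the lower chondrocyte and hypertrophic sums given above. The lower hypertrophic sum came from Col10a1 (1815 against 6133 CPM) and, to a small extent, Ihh (51.3 against 63.9), while Panx3 (1008 against 668), Alpl (1891 against 1012) and Runx2 (258 against 229) were higher. Xist, expressed from the inactive X of female cells, stood at 1065, 1129.8 and 1223 CPM in wildtype and at 842, 677 and 513 CPM in Ezh2-deficient cells, and the Y-linked Ddx3y at 49.0, 33.1 and 31.8 against 67.0, 63.7 and 82.0 CPM. On all 3 days Xist was thus lower and Ddx3y higher in Ezh2-deficient cells, and the part of this difference in the ratios, that of the X-linked Timp1 included, was not tested.

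A further fit asked whether the genotype difference changed with each doubling of the day of culture. By edgeR no member passed, beside 0.614% of all genes, and 2 of 10 had an unadjusted p under 0.05, beside 13.3% of all genes. These were Mmp2, with a slope of log2 0.40 ± 0.13 per doubling (adjusted p = 0.282), and Timp2, with -0.27 ± 0.08 (adjusted p = 0.267). Mmp3 gave -0.74 ± 0.31 (adjusted p = 0.390). This fit had 1 residual degree of freedom and assumes an even trend. The ratios of Mmp13, Mmp2 and Mmp3, for example, were highest on day 7 and do not follow such a trend.

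Mmp13 and Mmp3 belong to a cluster of 10 Mmp genes on chromosome 9, from 7272514 to 7699416 in mm10, with no other gene of the table between them. On day 14, 6 cluster genes reached 1 CPM in the higher library, and each was lower in Ezh2-deficient cells. Of all genes that met this rule, 49.0% were lower, and 61.8% without TMM scaling. Mmp10 met the rule through the wildtype library alone. Mmp20, at 0.401 CPM in Ezh2-deficient and 0 in wildtype cells, did not meet it. The count of 6 thus depends on the rule and is a description. Mmp12, the elastase of macrophages, stood at 97.0 CPM in wildtype against 68.9 in Ezh2-deficient cells, and Mmp10, a second stromelysin, at 1.86 against 0.292. Mmp8, a collagenase best known from neutrophils, stood at 3.34 against 1.57 CPM, and Mmp27 at 10.4 against 5.33. On day 7, by contrast, Mmp13 was higher in Ezh2-deficient cells while Mmp12 was at 53.0 against 105 CPM. Mmp20 had 22 counts in the Ezh2-deficient day 14 library and 0 in the other 5, and Mmp7 had 0 in all 6.

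**Figure D5:**
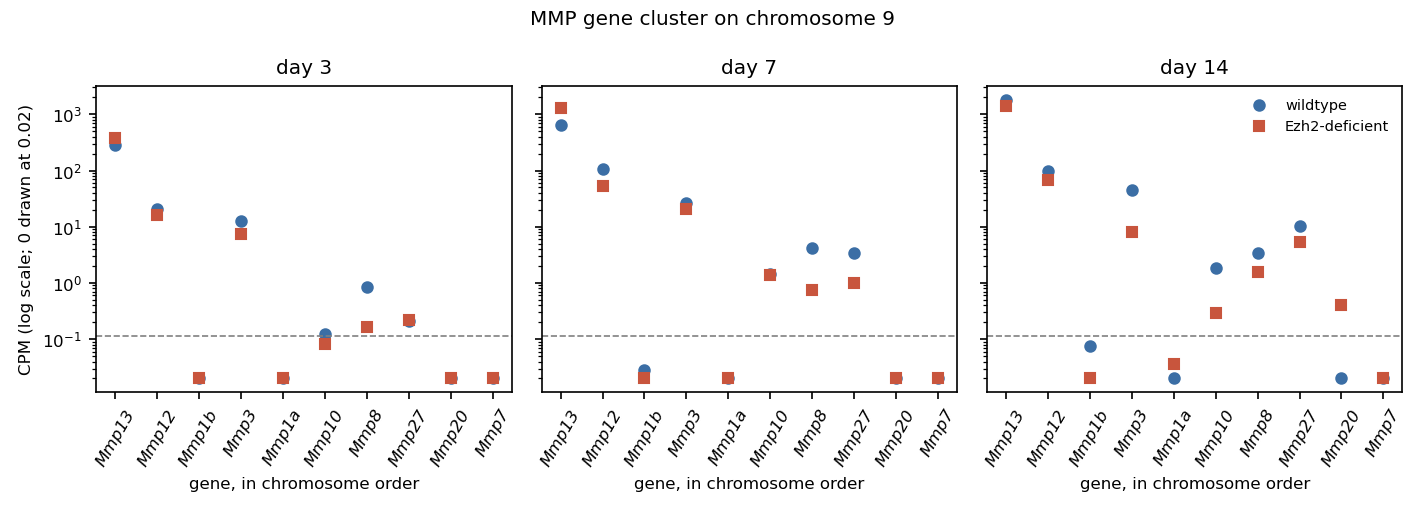
CPM (log scale, 0 drawn at the bottom) of the 10 Mmp genes of chromosome 9 in chromosome order, for wildtype (circles) and Ezh2-deficient (squares) cells on each day, 1 library per point. The dashed line is the highest floor of 3 fragments, 0.114 CPM. On day 14 the squares lie below the circles for Mmp13, Mmp12, Mmp3, Mmp10, Mmp8 and Mmp27.

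All 10 cluster genes had a RefSeq promoter, with 12 entries in all. A gene was counted if any of its entries held the motif. The AP-1 motif was present for 8 genes, beside 6.75% of all RefSeq promoter entries. The AP-1 and TATA motifs together were present for 7 genes, beside 0.791% of all entries. Of these 7 (Mmp10, Mmp13, Mmp1a, Mmp1b, Mmp20, Mmp3 and Mmp7), Mmp13 and Mmp3 alone exceeded 2 CPM in any library.

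Of the 17 other Mmp and Timp genes in the table, 12 had enough counts to test. From day 3 to day 14, 6 rose and 1 fell (median log2 1.53, against -0.02 for all genes), beside 23.2% and 22.4% of all tested genes. Mmp23, a membrane-anchored protease, rose from 3.82 to 54.3 CPM in wildtype and from 4.95 to 67.9 CPM in Ezh2-deficient cells (log2 3.80 ± 0.10, edgeR adjusted p = 0.000131). Mmp12 (log2 2.16), Mmp27 (5.11) and Mmp19 (1.91) were the others of smallest p among those that rose, and Mmp28 fell (log2 -1.44, adjusted p = 0.0125). Between genotypes 0 of the 12 passed, beside 0.0123% of all tested genes. At an unadjusted edgeR p under 0.05, 3 were higher and 3 lower in Ezh2-deficient cells, beside 13.2% of all genes in either direction. Mmp8 (log2 -1.91 ± 0.35, adjusted p = 0.148) and Mmp12 (log2 -0.61 ± 0.14, adjusted p = 0.196) had the smallest p, followed by Mmp23 (0.29) and Mmp28 (0.92).

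Genes that activate, hold or clear MMPs mostly rose as well. Of 17 tested, 13 rose and 1 fell from day 3 to day 14 (median log2 0.98), beside 23.2% and 22.4% of all tested genes. Cd44, the hyaluronan receptor that can hold Mmp9 at the cell surface, rose by log2 2.04 ± 0.14 (edgeR adjusted p = 0.00036), and Plat, tissue plasminogen activator, by 2.45 ± 0.17 (0.000374). Serpine2, an inhibitor of serine proteases, rose by 1.69 and Pcsk6, a proprotein convertase of the furin family, by 1.40. The gene that fell was Lcn2, whose product binds Mmp9 (log2 -4.26 ± 0.49, adjusted p = 0.00181). Lcn2 stood at 56.7, 14.3 and 4.48 CPM in wildtype and at 52.6, 19.6 and 1.46 CPM in Ezh2-deficient cells, so it was lowest on day 14 like Mmp9. Between genotypes 0 of 17 passed, beside 0.0123% of all tested genes. Plau, urokinase, which makes the plasmin that cuts pro-MMPs, passed the trend test (log2 -0.75 ± 0.07 per doubling of day, adjusted p = 0.0440). It stood at 12.1, 62.2 and 67.7 CPM in wildtype and at 16.9, 44.0 and 29.8 CPM in Ezh2-deficient cells, which were higher on day 3 and lower later.

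Of 20 regulators of MMP transcription, 8 rose and 6 fell from day 3 to day 14 (median log2 0.26), beside 23.2% and 22.4% of all tested genes. Runx2, the factor of hypertrophic chondrocytes and osteoblasts that drives Mmp13, stood at 58.3, 87.8 and 229 CPM in wildtype and at 77.3, 98.4 and 258 CPM in Ezh2-deficient cells, a rise of log2 1.85 ± 0.10 (edgeR adjusted p = 0.000207). Mef2c, a factor of chondrocyte hypertrophy, rose by 2.60 (adjusted p = 0.000871), while Hif1a, the hypoxia factor, fell (log2 -1.09, adjusted p = 0.00121), as did Lef1, of the Wnt pathway (log2 -1.25, adjusted p = 0.00122). No regulator passed between genotypes, beside 0.0123% of all tested genes. Of 8 tested cytokines that induce MMPs, 3 rose, beside 23.2% of all tested genes, and 5 did not pass. Lif gave log2 2.71 (adjusted p = 0.00099) and Tnf 2.76 (0.00386), and Osm (adjusted p = 0.00554) went from 0 and 2 counts on day 3 to 46 and 40 counts on day 14. All 3 stayed at 7.04 CPM or less in every library.

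Of 15 matrix proteins that MMPs cut, 10 rose and 3 fell from day 3 to day 14 (median log2 1.80), beside 23.2% and 22.4% of all tested genes. Between genotypes 0 passed, beside 0.0123% of all tested genes. Ibsp, bone sialoprotein, rose by log2 9.12 and Col1a1, type I collagen, by 5.71, whereas Acan, aggrecan (log2 -2.78), and Col2a1, type II collagen (log2 -2.37), fell (edgeR adjusted p of 0.00261 or less for the 4). Col10a1, type X collagen, a substrate of Mmp13 in hypertrophic cartilage, stood at 368, 462 and 6133 CPM in wildtype and at 440, 211 and 1815 CPM in Ezh2-deficient cells. It passed the trend test (log2 -0.92 ± 0.11 per doubling of day, adjusted p = 0.0440). On day 7 Col10a1 was lower in Ezh2-deficient cells while Mmp13 was higher there, and on day 14 both were lower.

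For the 3 members with the widest range, the genes with the most similar course over the 6 libraries were found by Euclidean distance between centred log2 CPM, among 10313 genes of at least 5 CPM on average. For Mmp9 (range log2 3.30) these were Slc27a6 (distance 0.766), Snph (0.843) and Tubb2b (0.884). The nearest to Mmp2 (range 2.74) were Unc93b1 (0.445), Arid3a (0.460) and Mbp (0.468). Nearest to Mmp13 (range 2.65) were Itga4 (0.408), Col12a1 (0.503) and Ltbp1 (0.572). Ranking by Pearson's r over the same 6 libraries shared 0 of 3 genes with these for each of the members. Itga4 stood at 5.13, 14.0 and 30.4 CPM in wildtype and at 6.86, 22.1 and 31.6 CPM in Ezh2-deficient cells.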

How the data were processed

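The members and gene lists were chosen with earlier results of these data known. The authors deposited whole-number counts per gene and RPKM values for the 6 libraries. Per the submitters' processing notes, CASAVA 1.9, TopHat 12.0.6, HTSeq and the build mm10 were used, with no role or order given. The sources used here give no strand setting or annotation. Reads of overlapping antisense genes (Syn1 over Timp1, Syn3 over Timp3) could not be told apart. All deposited counts were even, and 1 fragment was taken as 2 counts for the counting intervals and the floor. The filter, the tests and the prior count used the deposited counts unchanged. The RPKM values as deposited were used for levels between genes, and counts in the table were 80.22% to 82.8% of the totals behind them.

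Counts were tested in R 4.3.3 with edgeR 4.0.16 (TMM factors from 0.935 to 1.09, genes kept by filterByExpr per day at a minimum count of 10, 16280 in all, quasi-likelihood F test, two-sided, Benjamini-Hochberg adjustment, threshold 0.05). The model held day and genotype (2 residual degrees of freedom), and a second one added genotype by centred log2 day (1 residual degree of freedom). The SE of a log2 fold change is its size over the square root of F. P-values measure the spread between these libraries only, and no separate cultures or animals are labelled. Within a day no test was made. Ratios there carry an exact 95% counting interval on fragments, and the 2-fold rule used a prior count of 2. Intervals and the floor of 3 fragments (0.0763 to 0.114 CPM) cover counting error only. Alternatives were RLE factors, total counts, no filter, DESeq2 1.42.0, limma-voom (limma 3.58.1) and leaving out each library or day. All 10 members are named, with up to 4 genes of smallest p from each list. Further genes (Lcn2, Plau, Col10a1, Acan, Col2a1, Mmp10, Mmp20, Mmp7 and Mmp28) were chosen after their values were seen. Promoters are RefSeq's (GRCm38.p6), and overlaps come from a GENCODE annotation of mm10.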

Additional observations from a re-analysis of the deposited data

Results flagged for a closer look

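For 2 of the 10 members the ratio of day 14 to day 7 lay on opposite sides of 1 in the 2 genotypes, with counting intervals that excluded 1 in both. Mmp3 went to 1.69 times its day 7 level in wildtype cells and to 0.396 times in Ezh2-deficient cells. Timp3 went to 1.07 times its day 7 level in wildtype cells and to 0.556 times in Ezh2-deficient cells. The Mmp14 ratios were 1.39 and 0.991, the second with an interval that included 1 (0.967 to 1.017). Without TMM scaling, Mmp13 (2.58 and 0.932) and Mmp14 (1.30 and 0.867) also met this rule, and Timp3 did not, since its wildtype ratio was 1.01 with an interval of 0.987 to 1.023. The share of all genes that meet this rule is not given here, so the counts are a description. With 1 library per genotype and day, none of these differences was tested.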

How the results depend on the processing

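Member calls held across normalization, filter and tool with few exceptions. Over all alternatives, 369 of the member log2 values kept their direction and side of the threshold, 15 no longer passed, 3 newly passed and 13 turned sign. The 15 came from the day comparisons, which called 8 (day 14 against 3), 8 (day 7 against 3) and 2 members (day 14 against 7). The genotype and trend fits called 0 members and had none to lose. Between genotypes 0 members passed in every alternative, while the 2 genes called became 9 (RLE factors), 0 (total counts), 9 (no filter), 607 (DESeq2) and 40 (limma-voom), and 0 to 863 when 1 day was left out. The Mmp2 difference (-0.01) turned to 0.0074 with RLE factors and to 0.0069 with DESeq2. When 1 day was left out, it ran from -0.19 to 0.29 for Mmp2, from -0.080 to 0.40 for Timp3 and from -0.28 to 0.023 for Timp2. Leaving out 1 library gave 4912 to 6605 genes (7414 with all) and 7 to 9 members (8 with all) for day 14 against 3, 1860 to 5352 genes (5881) and 4 to 8 members (8) for day 7 against 3, and 45 to 754 genes (922) and 0 to 3 members (2) for day 14 against 7, where DESeq2 called 1944. For day 7 against 3, Mmp9 then ran from -0.68 to 0.098 (highest without the wildtype day 7 library). For day 14 against 7, Mmp3 ran from -1.24 to 0.67, Timp2 from -0.33 to 0.012 and Timp3 from -0.75 to 0.00099, each highest without the Ezh2-deficient day 14 library, and Mmp3 was 0.40 without the Ezh2-deficient day 7 library. Trend calls numbered 100, against 270 (total counts), 247 (no filter) and 342 (DESeq2), with 0 members each, and Mmp9 turned to -0.023 with total counts and -0.015 with DESeq2, and Mmp11 to -0.0021 with total counts. A 1.5-fold rule took 2 members on day 3, 2 on day 7 and 1 on day 14. Over all genes it took 698 higher and 362 lower of 13150 on day 3. The same counts were 809 and 827 of 13473 on day 7, and 859 and 1070 of 13477 on day 14. With total counts the 2-fold rule took 1 member on day 7, beside 367 higher and 220 lower of 13613 genes. The cause of these shifts was not tested, except that leaving out libraries leaves fewer samples. Total counts moved the median gene by 0.21 (day 7 against 3) and -0.14 (day 14 against 7). Leaving out libraries from the trend fit leaves no residual degrees of freedom and was not run. Day is a term of the genotype fit, which thus compares libraries within days.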
